A study of Mus musculus with 2 samples.

Results

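The Hox genes of mouse intestine at embryonic day 15.5 (E15.5) were examined by their cluster, their position within it and their transcripts. The members are the 39 protein-coding genes whose symbol is Hox followed by a cluster letter from a to d and a number, out of 21474 protein-coding genes and 43346 Ensembl gene entries in the deposited tables. All 39 were found in both libraries' tables, 11 in cluster A, 10 in cluster B, 9 in cluster C and 9 in cluster D. The study sequenced total RNA from 2 libraries that form 1 group, intestine of embryos of strain B6NCrl that the labels call healthy. Each library was made from its own pool of embryos of mixed sex (replicate 1 from 78 and replicate 2 from 62). No mutation, transgene or treatment is named in the labels, and they do not say which segments of the intestine were taken. With 1 group no test between conditions was possible, so every value below is a level, a share or a ratio between the libraries. Levels are in TPM, the authors' estimate of a transcript's abundance relative to all transcripts, corrected for effective length. They are given as replicate 1 and then replicate 2, or as mean ± SD (n = 2 throughout).

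Hox genes encode transcription factors that bind DNA through the homeodomain, the product of a conserved stretch called the homeobox. They lie in clusters that arose by duplication, and members in corresponding positions of different clusters (a group, or paralogue group, with the same number) resemble each other more than their neighbours do. Low-numbered genes lie at one end of a cluster and are active early and towards the head, high-numbered genes lie at the other end and are active later and towards the tail. In the gut they act mainly in the mesoderm around the epithelial tube, in enteric neural crest cells and, for the highest numbers, around the hindgut and cloaca.

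The libraries held 33665128 and 39953610 estimated counts on mouse genes, of which 7968.2 and 10770 fell on Hox genes. For a transcript 1 kilobase long, 3 counts amount to 0.125 and 0.107 TPM. The tissue label was checked against marker genes. All 4 epithelial markers were detected, with Krt8, a keratin of simple epithelia, at 755 and 708 TPM and Epcam, an epithelial adhesion protein, at 653 and 669 TPM. All 4 mesenchyme and all 4 smooth muscle markers were detected as well, led by Col3a1 at 1317 and 1483 TPM and Acta2 at 1251 and 1296 TPM. Markers of organs that express Hox genes and lie close to the gut were low. The 3 kidney and gonad markers summed to 1.30 and 0.43 TPM, in replicate 1 mostly Nr5a1 (a regulator of gonad and adrenal development) at 0.91 against 0.04, and the 4 limb and axial skeleton markers summed to 0.12 and 0.40 TPM. Of the 3 spinal cord markers, the motor neuron and oligodendrocyte factor Olig2 was at 0.02 and 0 TPM, whereas Pax6 (1.94 and 2.26) and Mnx1 (1.17 and 1.27) were detected. Their part in the Hox values was not tested. In bulk tissue, fewer cells of a type and less RNA per cell cannot be told apart.

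The clusters were located with GENCODE M21 on GRCm38, the assembly of the deposited tables. Cluster A lies on chromosome 6 on the minus strand, cluster B spans chr11:96194316-96368256 on the plus strand (174 kb), cluster C chr15:102921103-103036852 on the plus strand (116 kb) and cluster D chr2:74668310-74765142 on the plus strand (96.8 kb). A homeobox of 180 bases was found in the reference transcripts of all 39 genes, and in each gene it lies within a single exon. Its bases were compared over all pairs of genes. The median identity was 80.6% for the 42 pairs of the same group, 61.7% for the 172 pairs of the same cluster and 60.6% for the 527 other pairs. The highest identity was 93.9%, between Hoxa3 and Hoxb3, and the lowest within a group was 67.2%, between Hoxb13 and Hoxd13. The homeobox of Hoxa5 is printed because group 5 had the highest summed level in these libraries. It is the coding strand, 5′ to 3′, from the reference transcripts, with capitals at the 56 positions where Hoxa5, Hoxb5 and Hoxc5 are not all alike.
Hoxa5 homeobox, chr6:52202632-52202811, minus strand: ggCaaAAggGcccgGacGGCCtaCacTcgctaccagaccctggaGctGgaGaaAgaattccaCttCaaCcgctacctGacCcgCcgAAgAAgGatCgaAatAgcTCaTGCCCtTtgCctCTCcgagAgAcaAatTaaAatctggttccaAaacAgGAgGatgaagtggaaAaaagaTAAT
Hoxa5 and Hoxb5 share 151 of the 180 bases (83.9%), Hoxa5 and Hoxc5 138 (76.7%) and Hoxb5 and Hoxc5 135 (75.0%). The differences are scattered over the whole length. Words of 31 bases that occur in the transcripts of more than 1 Hox gene were counted separately. Of the 39 genes, 19 share at least 1 such word with another Hox gene. The largest shares are on Hoxd4 (12.1% of its words) and Hoxd3 (9.26%), whose annotated transcripts overlap in the genome on the same strand, followed by Hoxc10 (7.34%) and Hoxc5 (4.55%), which overlap as well.

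Of the 39 Hox genes, 27 (69.2%) were detected, that is, at 1 TPM or more in both libraries, against 62.7% of all protein-coding genes. The 27 were 9 of 11 in cluster A, 8 of 10 in cluster B, 6 of 9 in cluster C and 4 of 9 in cluster D. Detected Hox genes were low compared with other detected genes. Their median level was 4.995 TPM, against 17.8 TPM over the 13474 detected protein-coding genes, and the highest of them, Hoxb5, stood at the 58.5th percentile of those genes. The summed level of all 39 was 185 TPM in replicate 1 and 217 TPM in replicate 2. Cluster B summed to 68.9 and 74.1 TPM and cluster A to 59.4 and 75.0 TPM, so that the order of these 2 clusters differed between the libraries. Cluster D (30.1 and 36.5 TPM) and cluster C (26.9 and 31.6 TPM) were each below both, in both libraries. Their own ranges overlap, with D above C in each library. As shares of all Hox TPM, B held 35.7 ± 2.17%, A 33.3 ± 1.74%, D 16.5 ± 0.40% and C 14.5 ± 0.03%. The order of C and D depends on which transcripts are counted. On transcripts whose coding sequence is complete with the homeobox, described further on, C was at 22.8 and 25.2 TPM and D at 15.9 and 21.4 TPM.

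**Figure D1:**
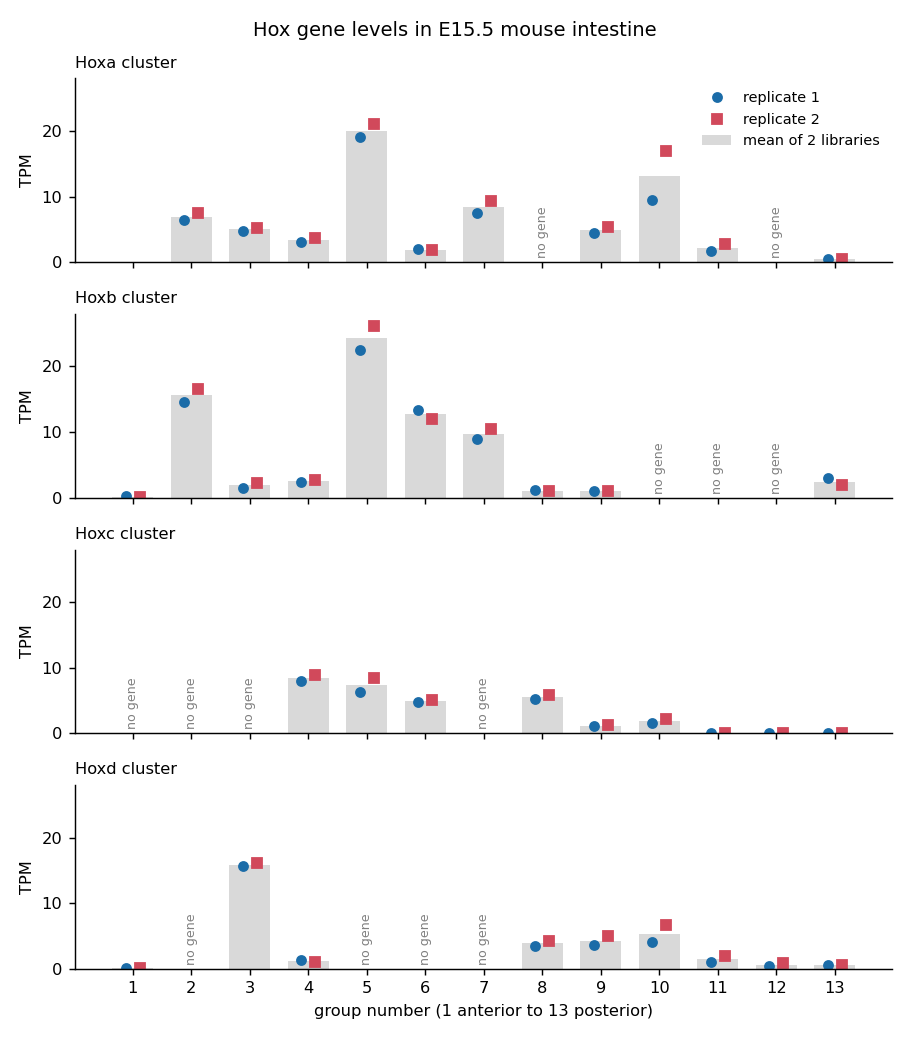
Level of each Hox gene (TPM, linear axis from 0) by group number, 1 panel per cluster. Grey bars are the mean of the 2 libraries, blue circles replicate 1 and red squares replicate 2, and positions where a cluster has no gene are marked (1 gene is not drawn). Group 5 is the highest position of clusters A and B, Hoxd3 stands alone in the anterior end of cluster D, and Hoxa10 has the widest gap between the libraries (9.43 and 16.89 TPM).

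By position, the central groups 4 to 8 held most of the signal. Their 15 genes made up 57.4 ± 1.97% of Hox TPM, the 8 anterior genes of groups 1 to 3 held 23.1 ± 0.93% and the 16 posterior genes of groups 9 to 13 held 19.5 ± 2.90%. At 1 TPM or more in both libraries were 13 of 15 central, 5 of 8 anterior and 9 of 16 posterior genes, against 62.7% of all protein-coding genes. The anterior and posterior counts are near that share. The share of the posterior genes depends on where the line is drawn. With group 9 counted as central it was 13.9%. Summed by group, group 5 led with 48.0 and 55.6 TPM (25.7% of Hox TPM), followed by group 3 (21.9 and 23.6 TPM) and group 2 (21.03 and 23.99 TPM), which overlap each other and group 10 (15.03 and 25.65 TPM). The place of group 3 rests on a retained-intron transcript of Hoxd3 at 11.64 and 13.03 TPM, described further on. It is also part of the anterior share. The complete coding transcripts of Hoxd3 held 2.42 and 2.34 TPM. Groups 11, 12 and 13 were at or below 4.75 TPM in both libraries.

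**Figure D2:**
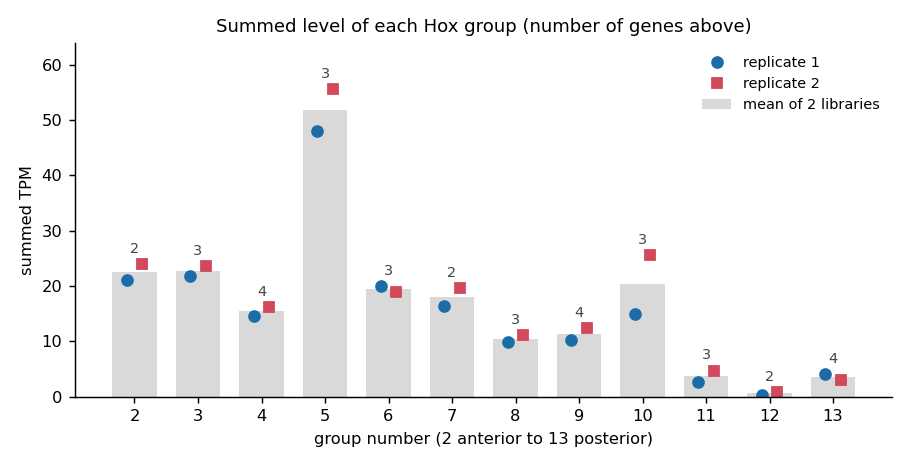
Summed TPM of the genes of group numbers 2 to 13 over clusters A to D (linear axis from 0), with the number of genes above. Bars are the mean of the 2 libraries, blue circles replicate 1 and red squares replicate 2. Group 5 is highest in both libraries (48.0 and 55.6 TPM), and group 10 (15.03 and 25.65 TPM) has the widest gap between them.

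Among the anterior genes, Hoxb1, which patterns the hindbrain, was at 0.26 and 0.04 TPM and Hoxd1 at 0.07 and 0.08 TPM. These are 6 and 2 estimated counts for Hoxb1 and 3 and 4 for Hoxd1, at or near the limit of 3 counts. Both genes of group 2, known for patterning the hindbrain and the second branchial arch, were detected. Hoxb2 was at 14.65 and 16.56 TPM and Hoxa2 at 6.38 and 7.43 TPM, without overlap between the genes. In group 3, Hoxd3 was at 15.59 and 16.09 TPM, Hoxa3 (needed for thymus and parathyroid formation) at 4.78 and 5.21 TPM and Hoxb3 at 1.49 and 2.26 TPM. In gene TPM the 3 genes of this group were therefore well apart in both libraries. Most of the Hoxd3 value does not come from its complete coding transcripts, as described further on. On those transcripts alone Hoxd3 was at 2.42 and 2.34 TPM, below Hoxa3 at 3.33 and 3.57 TPM.

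Among the central genes, Hoxb5 was the highest of all 39, at 22.56 and 26.21 TPM. It is known for its role in enteric neural crest cells. Hoxa5, needed for normal lung and gut development, was second in rank at 19.06 and 21 TPM, and the values of these 2 genes did not overlap. Hoxc5 was lower, at 6.35 and 8.35 TPM. In group 6 the order was Hoxb6 at 13.41 and 12.07 TPM, Hoxc6 at 4.72 and 5.08 TPM and Hoxa6 at 1.94 and 1.85 TPM. In group 7, Hoxb7 was at 8.91 and 10.40 TPM and Hoxa7 at 7.44 and 9.32 TPM. Their ranges overlap, with Hoxb7 above Hoxa7 in each library. In group 4, Hoxc4 led at 7.93 and 8.88 TPM, before Hoxa4 (3.10 and 3.75 TPM), Hoxb4 (2.35 and 2.67 TPM) and Hoxd4 (1.31 and 0.99 TPM). Group 8 was led by Hoxc8, a gene that patterns thoracic vertebrae and motor neurons, at 5.18 and 5.87 TPM, with Hoxd8 at 3.47 and 4.28 TPM and Hoxb8 at 1.22 and 0.96 TPM. Hoxb8 and Hoxd4 fell short of 1 TPM only in replicate 2.

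Among the posterior genes, all 4 of group 9 were detected, with Hoxa9 (a regulator of blood progenitors) at 4.41 and 5.31 TPM, Hoxd9 at 3.69 and 4.93 TPM, Hoxc9 at 1.08 and 1.21 TPM and Hoxb9 at 1.07 and 1.02 TPM. All 3 of group 10 were detected too. Hoxa10, which also patterns the uterus, was at 9.43 and 16.89 TPM, Hoxd10 at 4.01 and 6.62 TPM and Hoxc10 at 1.59 and 2.14 TPM. From group 11 on, 2 of 9 genes were detected, Hoxa11 (1.69 and 2.78 TPM), a gene of limb and kidney development, and Hoxb13 (2.99 and 1.94 TPM), a gene of the tail bud, the prostate and the distal hindgut. The others of cluster D were below 1 TPM in at least 1 library, with Hoxd11 at 0.97 and 1.93, Hoxd12 at 0.38 and 0.88 and Hoxd13 at 0.56 and 0.65 TPM. Hoxa13, which acts with Hoxd13 in limb and hindgut, was at 0.49 and 0.50 TPM. In cluster C the last detected gene was Hoxc10. Hoxc12 and Hoxc13 (the latter a gene of hair and nail) had no count in either library, which allows up to 0.13 and 0.12 TPM for Hoxc12 and 0.05 and 0.05 TPM for Hoxc13, and Hoxc11 had 0 and 2 counts. Over all 39 genes in order of mean level, the ranges of the libraries did not overlap in 10 of 38 neighbouring pairs. This compares values across libraries, and a pair that overlaps can keep its order within each library. Hoxa7 (7.44 and 9.32 TPM) and Hoxc5 (6.35 and 8.35 TPM) are such a pair. The same count over all genes was not made.

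For each gene the ratio of replicate 2 to replicate 1 was taken on a log2 scale after adding 1 TPM to both, which shrinks the ratios of low genes. Of the 27 detected Hox genes, 23 were higher in replicate 2, against 56.1% of all detected protein-coding genes. The median ratio was 0.19 over the detected Hox genes and 0.02 over all detected genes. By this measure 2 detected Hox genes were more than 1.5-fold higher in replicate 2, Hoxa10 (0.78) and Hoxd10 (0.60), against 0.297% of detected genes, and 0 were more than 1.5-fold lower, against 1.05%. Among the 7872 detected protein-coding genes within the level range of the detected Hox genes these shares were 0.457% and 1.22%.

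The ratio between the libraries was larger at the posterior end than elsewhere in the clusters. The posterior sum was 32.4 TPM in replicate 1 and 46.8 TPM in replicate 2, a ratio of 1.45, against 1.12 for the central and 1.11 for the anterior genes. Of the posterior sum, 5.03 and 11.12 TPM were Hoxa10-203, a transcript with no annotated coding sequence described further on. The complete coding transcripts of Hoxa10 held 4.40 and 5.11 TPM. Hoxa10-203 also enters the values of group 10 and cluster A below, and these ratios were not computed on complete transcripts alone. The ratio was 1.22 for group 9, 1.71 for group 10, 1.79 for group 11 and 2.32 for group 12, the last from 2 genes below 1 TPM, and it turned to 0.765 for group 13. Over the posterior genes of each cluster it was 1.59 in cluster A, 1.56 in cluster D, 1.27 in cluster C and 0.729 in cluster B, whose posterior genes are Hoxb9 and Hoxb13 alone. For single genes the ratio of the estimated counts per gene count, with an exact 95% interval that covers counting error only, was 1.67 (1.48 to 1.89) for Hoxa10, 1.62 (1.34 to 1.97) for Hoxd10, 1.61 (1.23 to 2.09) for Hoxa11, 2.06 (1.49 to 2.90) for Hoxd11 and 2.30 (1.39 to 3.93) for Hoxd12. Hoxb13 went the other way, at 0.636 (0.494 to 0.817). Each of these 6 intervals lies on 1 side of 1, and those of Hoxc10 (0.966 to 1.81), Hoxd13 (0.700 to 1.85) and Hoxa13 (0.718 to 2.34) do not. In groups 1 to 9 the interval lay above 1 for Hoxd9 (1.08 to 1.59), Hoxb5 (1.05 to 1.24) and Hoxb2 (1.01 to 1.26). Counting error is only part of the spread between pools, so these intervals compare the 2 libraries and no conditions. The share of all genes whose interval lies on 1 side of 1 was not computed. The number of such Hox genes therefore has no background to be read against. This look at the groups was chosen after the values were seen.

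**Figure D3:**
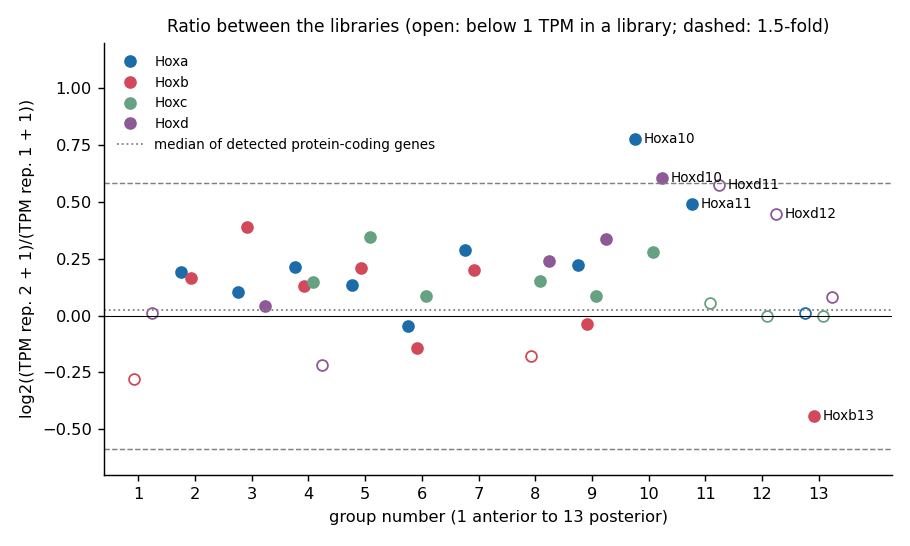
Ratio of replicate 2 to replicate 1 (log2, after adding 1 TPM to both) for 38 of the 39 Hox genes by group number, coloured by cluster. Filled points are detected genes, open points fall below 1 TPM in a library, dashed lines mark 1.5-fold and the dotted line the median of all detected protein-coding genes (0.02). Hoxa10 (0.78) and Hoxd10 (0.60) lie above the upper dashed line, and Hoxb13 (-0.44) is the lowest point.

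The transcript tables divide each gene over its annotated transcripts. The 39 genes have 87 transcripts, all matched by identifier in GENCODE M21 and 85 of them at the same length. A transcript was counted as complete if its annotated coding sequence has both a start and a stop and contains the whole homeobox, which 50 of the 87 do. Another 21 hold the homeobox bases without such a coding sequence. The complete transcripts took 80.0% and 76.4% of Hox TPM. Retained-intron transcripts took 8.55% and 8.34%, processed transcripts (spliced RNAs with no annotated coding sequence) 5.79% and 9.67%, and other coding transcripts, including those annotated for nonsense-mediated decay (NMD, the breakdown of RNAs with an early stop), 5.63% and 5.62%. The clusters differed in this, with complete transcripts at 95.7% and 94.0% of the TPM in cluster B, 84.7% and 79.7% in C, 73.4% and 66.2% in A and 52.8% and 58.6% in D. No value of one cluster overlaps another's. The place of cluster D in this order rests on Hoxd3, since without it complete transcripts held 93.1% and 93.5% of the cluster's TPM, above clusters C and A.

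**Figure D4:**
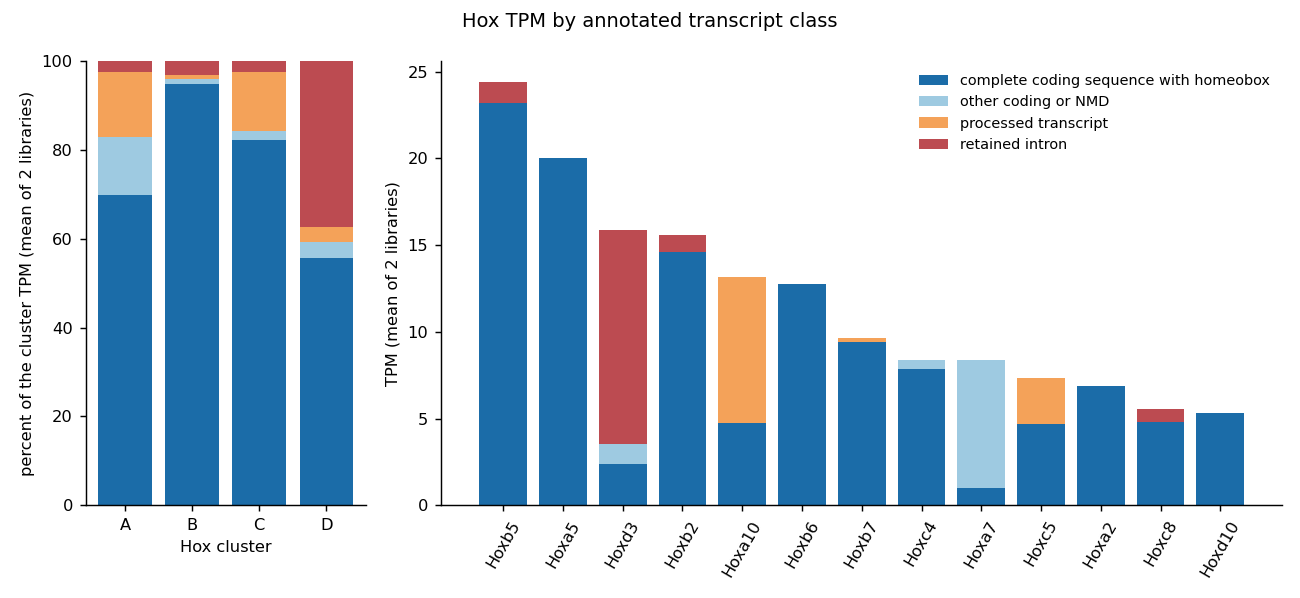
Left, percent of each cluster's TPM on 4 classes of annotated transcript. Right, TPM of the 13 Hox genes with a mean of at least 5 TPM, divided by the same classes (both panels show the mean of the 2 libraries on linear axes from 0). Hoxd3 is mostly retained-intron transcript, Hoxa10 mostly processed transcript and Hoxa7 mostly other coding or NMD transcript.

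The leading transcript of the 27 detected Hox genes had a median share of 95% of its gene's TPM, and in 16 of them it had over 90%. Of these 16, 9 have a single annotated transcript, so their share of 100% was fixed by the annotation. The same shares over all detected genes were not computed. Hoxa5, Hoxa2 and Hoxd10 each had 100% on their only transcript, Hoxb7-201 had 98.3% and 97.4%, Hoxb5-201 94.8% and 95.2%, Hoxb2-201 94.2% and 92.8%, and Hoxc4-201 92.7% and 94.0%. In Hoxb6 both transcripts above 10%, Hoxb6-201 (89.1% and 84.2%) and Hoxb6-202 (10.9% and 15.8%), carry the same length of coding sequence of 672 bases. Hoxc8-201 had 88.1% and 85.5%, beside the retained-intron transcript Hoxc8-202 at 11.9% and 14.5%. Hoxc5-201 had 72.8% and 56.7%, beside the processed transcript Hoxc5-202 (27.2% and 43.3%), which runs over 3 other Hox coding regions. Transcripts that run over another Hox gene's coding region numbered 4 of 87 and held 3.24% and 4.17% of Hox TPM.

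In 3 of the 27 detected Hox genes the leading transcript was not annotated as protein coding, namely Hoxd3, Hoxa10 and Hoxa7, against 6.19% of detected protein-coding genes. This count is on the mean of the libraries and holds in replicate 1, while in replicate 2 it was 2 of 27, because the leader of Hoxa7 there is annotated protein coding. All 3 are among the 18 detected Hox genes with several transcripts, and the share among all detected genes with several transcripts was 8.36%. A retained-intron transcript led 1 of the 27, Hoxd3, against 2.44% of detected protein-coding genes. Among the same 18 genes the leader differed between the libraries in 1, Hoxa7, against 8.76% of detected genes with several transcripts. Ranked by complete transcripts alone, Hoxb5 and Hoxa5 kept the leading ranks at 23.2 ± 2.51 and 20.0 ± 1.37 TPM, Hoxb2 followed at 14.6 ± 1.10 TPM, and Hoxd3 moved from rank 3 to rank 19.

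Hoxd3 (chr2:74711927-74748442, plus strand) had 74.7% and 81.0% of its TPM on the retained-intron transcript Hoxd3-206, 11.64 and 13.03 TPM. It is a single exon of 2721 bases, chr2:74745722-74748442, which holds the last 600 bases of the intron of 1766 bases before the homeobox exon and reads on through that exon. Hoxd3-204, a coding transcript annotated as incomplete (chr2:74745674-74746596), starts in the same intron and had 8.39% and 2.81% of the TPM. Part of these intron bases is therefore exon in Hoxd3-204. The 3 complete transcripts together had 2.42 and 2.34 TPM, or 15.5% and 14.5%. The sequences around the start of the homeobox exon show the difference, with the shared exon in capitals and the 30 bases before it in lower case.
Hoxd3-201, spliced from the upstream coding exon: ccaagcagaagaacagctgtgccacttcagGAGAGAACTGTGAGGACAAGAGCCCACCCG
Hoxd3-206, intron bases that end in the ag of the splice site: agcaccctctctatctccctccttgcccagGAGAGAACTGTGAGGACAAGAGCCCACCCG
Only 272 of the 2721 bases of Hoxd3-206 are in no other transcript of the gene, so its share rests on the authors' division of shared reads. Of the 31-base words of Hoxd3, 52.6% also occur in Gm28230, a gene entry that overlaps it on the same strand and was at 0.60 and 0.46 TPM, and 61.2% occur in some other gene. The Hoxd3 and Hoxd4 values (49.1% of the words of Hoxd4 occur elsewhere) are uncertain to that extent.

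Hoxa10 (chr6:52231197-52240854, minus strand) has 3 transcripts above 10% that join different upstream exons to the same homeobox exon, which begins at base 52232780. The processed transcript Hoxa10-203 had 53.4% and 65.8% of the gene's TPM, Hoxa10-201 had 24.4% and 17.5%, and Hoxa10-202 had 22.2% and 12.8%. Hoxa10-202 has the long coding sequence of 1248 bases. That of Hoxa10-201 has 282 bases and holds little beyond the homeobox. The junctions are shown with the shared exon in capitals and the 10 last bases of each upstream exon in lower case.
Hoxa10-203, upstream exon chr6:52233197-52233324: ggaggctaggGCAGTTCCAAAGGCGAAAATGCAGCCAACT
Hoxa10-201, upstream exon chr6:52240278-52240854: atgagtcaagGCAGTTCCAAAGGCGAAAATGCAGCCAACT
Hoxa10-202, upstream exon chr6:52233959-52234939: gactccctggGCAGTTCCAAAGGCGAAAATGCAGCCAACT
The gap between the libraries in Hoxa10 lay in the processed transcript. Hoxa10-203 was at 5.03 and 11.12 TPM, Hoxa10-201 at 2.30 and 2.95 TPM and Hoxa10-202 at 2.10 and 2.16 TPM. Of the 1710 bases of Hoxa10-203, 128 are in no other transcript of the gene. No 31-base word of Hoxa10 occurs in another gene.

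Hoxd11 showed a similar division at a lower level. Its processed transcript Hoxd11-201 was at 0.55 and 1.21 TPM and its coding transcript Hoxd11-202 at 0.42 and 0.72 TPM, and Gm28309, a noncoding gene entry on the same strand that starts inside Hoxd11 and shares 10.3% of its words, was at 1.48 and 2.63 TPM. Hoxd10, with a single annotated transcript of 1020 coding bases, had the gap in that transcript.

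Hoxa7 (chr6:52214491-52221854, minus strand) was led by the NMD transcript Hoxa7-205 in replicate 1 (50.4% and 37.9%) and by Hoxa7-203 in replicate 2 (35.7% and 41.8%). Hoxa7-201, whose coding sequence of 687 bases holds the homeobox, had 13.9% and 10.5%, or 1.04 and 0.98 TPM. Hoxa7-201 and Hoxa7-203 share the end of their first exon (lower case) and continue in different exons (capitals), of which only the one in Hoxa7-201 holds the homeobox.
Hoxa7-201: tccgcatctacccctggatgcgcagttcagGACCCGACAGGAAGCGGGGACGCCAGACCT
Hoxa7-203: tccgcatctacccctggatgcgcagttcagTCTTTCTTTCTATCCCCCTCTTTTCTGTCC
The coding sequence annotated for Hoxa7-203 has 546 bases, and the transcript lacks the homeobox. Of the words of Hoxa7, 19.4% occur in Hoxaas3, an antisense RNA at 7.78 and 8.77 TPM. Whether the counting used strand is not stated in the sources at hand, and without strand the reads of Hoxa7 and Hoxaas3 in that stretch cannot be told apart. On estimated counts the ratio between the libraries for Hoxa7 was 1.05 (0.889 to 1.25).

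Below the mean of 5 TPM, and chosen after the values were seen, 5 detected genes had a leading transcript with under 90% of their TPM. Hoxa3-201 had 69.5% and 68.4%, beside the retained-intron transcript Hoxa3-203 at 20.0% and 23.7%. Hoxc6-201 had 75.4% and 72.6%, and Hoxb9-201 had 65.2% and 52.4%, beside Hoxb9-202 at 34.8% and 47.6%, whose coding sequence of 408 bases does not cover the homeobox. Hoxa9-201, with the complete coding sequence, had 37.4% and 33.8%, and Hoxa9-202, whose coding sequence of 315 bases stops short of the homeobox, had 31.1% and 28.3%. Neither Hoxb9-202 nor Hoxa9-202 has a base found in no other transcript of its gene. Their shares therefore rest on the authors' division of shared reads. Hoxb3-202 had 78.0% and 38.9%. Its gene is the 1 detected member whose direction between the libraries depends on the unit, at 1.49 and 2.26 TPM but with a ratio of estimated counts of 0.875 (0.656 to 1.18), and 52.1% of its words occur in the antisense RNA Hoxb3os (3.39 and 4.54 TPM).

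Other genes of the pathway were read from lists. All 11 genes listed for the TALE homeodomain class, of which the Pbx and Meis proteins bind DNA together with Hox proteins, were detected, and 0 were over 1.5-fold apart. Meis1 was highest at 88.28 and 94.15 TPM, followed by Tgif1 (39 and 47.33), Meis2 (33.16 and 34.76) and Tgif2 (28.45 and 32.05). Of the noncoding RNAs of the clusters, 8 of 10 were detected, with Hotairm1 (at the anterior end of cluster A) at 18.58 and 22.56 TPM, Hoxd3os1 at 8.12 and 9.63, Hoxaas3 at 7.78 and 8.77 and Hoxa11os at 5.47 and 6.95 TPM. Hotair, in the posterior part of cluster C, was at 0 and 0.02 TPM, and Hottip, beside Hoxa13, at 0.06 and 0.05 TPM. For Hoxa11, 33.9% of the words occur in Hoxa11os, and for Hoxb2 26.5% occur in Hoxb3os. The 6 microRNA genes of the clusters are listed at 0, but their effective lengths are 0 to 11 bases and only RNA over 200 nucleotides was kept, so these entries say nothing about the microRNAs. Of the genes that flank the clusters, 5 of 9 were detected, with Mtx2 at 91.92 and 103.16 TPM next to Hoxd1, Skap2 at 33.79 and 36.86 TPM, Calcoco1 at 22.77 and 24.06 TPM and Lnpk at 15.68 and 21.30 TPM. Evx1 and Evx2, homeobox genes just beyond Hoxa13 and Hoxd13, were at or below 0.17 TPM.

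Of the known upstream regulators of Hox expression, 13 of 14 were detected and 0 were over 1.5-fold apart. Gmnn (geminin) was at 88.26 and 96.49 TPM, Cdx1, a caudal-type activator, at 77.58 and 71.12, Aldh1a2, an enzyme of retinoic acid synthesis, at 61.38 and 63.34 and Men1, a subunit of histone methyltransferase complexes, at 59.21 and 57.15 TPM. Cdx4 had no count in either library.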

How the data were processed

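Total RNA over 200 nucleotides was sequenced from 2 libraries with 10 ng of RNA each, per the labels' protocols. The authors deposited a gene and a transcript table per library, on mm10 with GENCODE M4 per the deposited readme. The sources used here do not give the quantifier, the aligner or the strand setting. Per the file headers the tables hold expected counts (estimated, not whole), TPM and FPKM, and the percent of a gene's TPM on each transcript. The deposited bounds of an interval for TPM have no stated level and were treated as a score. TPM was scaled by the authors over all entries, spike-ins included. Totals were 34406872 and 40669822 estimated counts.

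Symbols, positions and sequences came from GENCODE M21 by identifier without version. Detection meant 1 TPM or more in both libraries, and ratios used a pseudocount of 1. Exact 95% intervals of count ratios cover counting error only. TMM factors came from edgeR 4.0.16 and size factors from DESeq2 1.42.0, on counts rounded to whole numbers, in R 4.3.3. The pools are biological replicates per the labels, and with 1 group no differential test was made. The members and gene lists were chosen with earlier results of these data known. Named by rule were the members with their values (1 member and some sequences are not reported here), the leading and any other transcript above 10% for members with a mean of at least 5 TPM, and the 4 highest genes of each list. Alternatives covered the detection limit, the unit, the pseudocount, scaling, filters and each library left out.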

Additional observations from a re-analysis of the deposited data

How the results depend on the processing

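No paired analysis was possible because the 2 libraries form 1 group. With 2 libraries the spread is itself poorly known. A sum or share counts as moved here when it changes by more than the SD of the libraries. A count of genes counts as moved when it changes by more than 1.5-fold, and the median log2 ratio when it shifts by 0.1 or more. At 5 TPM in both libraries 12 Hox genes passed, against 27 at 1 TPM. In FPKM the cluster sums were 46.4 for A, 49.4 for B, 20.2 for C and 23.0 for D. Within a library FPKM differs from TPM by a common factor, so this move is a change of unit and the order of the clusters is the same. In estimated counts, which are not per length, the shares were 33.0% for B, 14.7% for C and 20.7% for D, and 25.7% for the anterior and 53.7% for the central groups. Without members below 1 TPM the share of C was 14.99% and that of D 15.1%. With group 9 as central, the central groups held 63.1% and the posterior 13.9%. With a pseudocount of 0.1, and with counts scaled by edgeR's TMM or DESeq2's size factors, 4 detected genes were over 1.5-fold apart in place of 2, 3 higher in replicate 2 (Hoxa10, Hoxa11, Hoxd10) and 1 lower (Hoxb13). The median ratio of detected Hox genes stayed between 0.15 and 0.22 on the log2 scale in the alternatives run. Scaled counts turned the direction of 1 detected gene, Hoxb3. From the posterior mean the median share of the leading transcript was 92.6%, and the same transcript led in all 27 detected genes. Within protein_coding transcripts alone, 95.4% of TPM was on complete transcripts with the homeobox. Without Hoxd3, an alternative chosen after seeing the data, 93.3% of the TPM of cluster D was on complete transcripts in place of 55.7%. Apart from the moves in FPKM and without Hoxd3, the cause of the moves was not tested. Leaving out each library in turn gave 28 and 29 detected genes and a median leading share of 94.6% and 94.8%. Over single genes, the posterior mean moved the leading share beyond the libraries' SD in 6 of 27. Detection near 1 TPM rests on few counts, such as 36 and 40 for Hoxa6.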
